A study of Homo sapiens with 6 samples.

Results

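HMOX1, which encodes the inducible heme oxygenase, and 9 other antioxidant genes controlled by the transcription factor NRF2 were followed through 6 RNA-seq libraries of HEK293T cells. The 10 genes, out of 23204 gene symbols in the deposited tables, were HMOX1, NQO1, GCLM, GCLC, TXNRD1, SRXN1, SQSTM1, FTH1, FTL and OSGIN1, each taken by its symbol and, where a symbol had several transcript rows, by the row of the highest mean level. The set was selected on the measured level of HMOX1, which was already known to stand high in these data in cells expressing the G302V form of DDX3X, so its level in that library is a description and not a test. The question put to the other 9 genes was whether the higher HMOX1 level with G302V was part of a wider antioxidant response. In the libraries at hand HMOX1 alone, of the genes that passed a filter on low values, was past 1.5-fold with G302V. It was 2.33-fold higher in RPKM with G302V than with GFP. None of the 8 other genes that passed the filter differed by as much as 1.5-fold in either direction in any of 8 comparisons. In those comparisons 0.347% to 2.64% of all genes did, so a count of 0 among 8 genes is near that share. The remaining gene, OSGIN1, was too low to compare.

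HEK293T is a human embryonic kidney line that carries the SV40 large T antigen, and DDX3X, an RNA helicase of the DEAD-box family, is recurrently mutated in medulloblastoma. In the plasmid arm, 5 µg of plasmid was transfected that encoded either GFP with no partner or a GFP-DDX3X fusion (the wild type, the T275M mutant or the G302V mutant), and GFP-positive cells were sorted after 32 h. All of these cells keep their own DDX3X, so each fusion was expressed on top of the endogenous gene. In the siRNA arm, cells received a control siRNA or an siRNA against DDX3X for 48 h, and no sorting is described for them. The library labelled T275M is called that throughout, although the study, where it plots these plasmid data, names another mutant beside G302V. Each group holds 1 library, so no difference below has a replicate check, no p-value was computed, and every interval covers the counting error of the reads only.

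Levels are given as RPKM, the reads of a transcript scaled to its length and to the total reads of the library, so that genes of different length can be set side by side. The libraries held between 43720000 reads (G302V) and 180870000 reads (DDX3X siRNA, 2.68 times its control). DDX3X stood at 119 RPKM with GFP, 2894 with wild type, 3279 with T275M, 1906 with G302V, 107 with control siRNA and 31.3 with DDX3X siRNA, in the direction of each label. The reads of construct and endogenous gene are summed in these values. The labels call the cells neuronal. Of 8 neuronal markers, summing to 9.60 to 13.6 RPKM, 3 or 4 reached 1 RPKM in a library (GAD1, at 2.82 to 4.31 RPKM, and SYP, at 2.74 to 5.59, were the highest), and STMN2 and MAP2 were at or near 0. Of 8 markers of an embryonic kidney line, summing to 315 to 379 RPKM, 6 or 7 reached it, but VIM alone gave 213 to 277 of that sum, and the kidney factors PAX2 (0.212 to 0.693 RPKM) and EYA1 (2.44 to 4.46) lay within or below the same range. As these are bulk libraries, fewer cells that express a gene and less RNA of it per cell cannot be told apart.

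NRF2, encoded by NFE2L2, is the main transcription factor of the response to electrophiles and oxidants. Its adaptor KEAP1, with the ubiquitin ligase subunits CUL3 and RBX1, keeps its protein level low in unstressed cells, and when KEAP1 is modified NRF2 accumulates, pairs with a small MAF protein (MAFF, MAFG or MAFK) and binds antioxidant response elements near its targets. HMOX1 is also held down by the heme-sensing repressor BACH1 at the same elements and is open to other stress-responsive factors. Much of NRF2 activity is set at the level of protein, which RNA-seq does not measure.

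The DNA in front of the 10 genes is shown first, because the elements are what the genes are thought to share. The 10000 bases upstream of each canonical transcription start (GENCODE 44 on GRCh37) were searched on both strands for the core antioxidant response element TGACNNNGC and for the longer form GCTGAGTCA, known from the HMOX1 enhancers as the stress response element. The reverse complement of the longer form fits the core element, so that each of its matches is also a core match. HMOX1 had 4 matches to the longer form, and of 16913 genes searched in the same way 0.106% had 3 or more. As the longer form is itself known from the HMOX1 enhancers, that share is a description and not a test. Capitals mark the matched bases, 10 bases of flank stand on either side, and each sequence reads 5′ to 3′ on the strand of its gene. The HMOX1 matches lay 3940, 8990, 9019 and 9077 bases before the start on chromosome 22, plus strand, at chr22:35773139-35773167 (in an exon of a long non-coding RNA), chr22:35768089-35768117, chr22:35768060-35768088 and chr22:35768002-35768030 (all 3 outside annotated genes).
HMOX1, 3940 bases upstream: gctagattttGCTGAGTCAccagtgcctc
HMOX1, 8990 bases upstream: gtctgttttcGCTGAGTCAcggtctagag
HMOX1, 9019 bases upstream: atctgttttcGCTGAGTCAcggtcccggt
HMOX1, 9077 bases upstream: tgtttttcctGCTGAGTCAcggtcccgag

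The 3 distal HMOX1 matches stood within 100 bases of each other and were all followed by the same bases cggtc, and no match to either element lay in the 1000 bases next to the start. Among the other 9 genes, NQO1, GCLC, FTH1 and FTL had 1 match each to the longer form and SQSTM1 had 2, against 12.9% of all genes searched with at least 1. Matches to the core element are common (96.7% of genes had at least 1, with a median of 4), and all 10 genes had between 2 and 10. In the 1000 bases next to the start, 6 of the 10 genes had a core match, against 32.5% of genes, and 2 of the 10 had the longer form, against 1.32%. The sequences below set 1 match each of 7 other genes beside those of HMOX1, the nearest match to the longer form where there was one. They lay at chr16:69760900-69760928 (minus strand, in an exon of NQO1-DT, the divergent non-coding RNA), chr5:179247543-179247571 (plus strand, in an intron of a longer SQSTM1 transcript), chr6:53413037-53413065 (minus strand, within GCLC but outside its exons), chr11:61739505-61739533 (minus strand, no gene), chr19:49467189-49467217 (plus strand, no gene), chr1:94375002-94375030 (minus strand, at the edge of a GCLM exon) and chr12:104609448-104609476 (plus strand, no gene). For GCLM and TXNRD1, where the longer form had no match, the nearest core element is shown.
NQO1, 455 bases upstream: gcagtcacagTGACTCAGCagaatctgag
SQSTM1, 352 bases upstream: tgaggatattGCTGAGTCAtggccaggcc
GCLC, 3156 bases upstream: cgcacaaagcGCTGAGTCAcggggaggcg
FTH1, 4417 bases upstream: ctagcagagtGCTGAGTCAcggtgggaca
FTL, 1367 bases upstream: gagctcagcaTGACTCAGCagtcgctgcc
GCLM, 34 bases upstream: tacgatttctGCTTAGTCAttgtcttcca
TXNRD1, 99 bases upstream: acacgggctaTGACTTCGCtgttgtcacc

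SRXN1 had 2 core matches, both more than 7 kilobases away, and OSGIN1 had 7, none of them to the longer form. A match is a run of letters and not a bound site, and the RNA-seq files say nothing of binding.

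**Figure D1:**
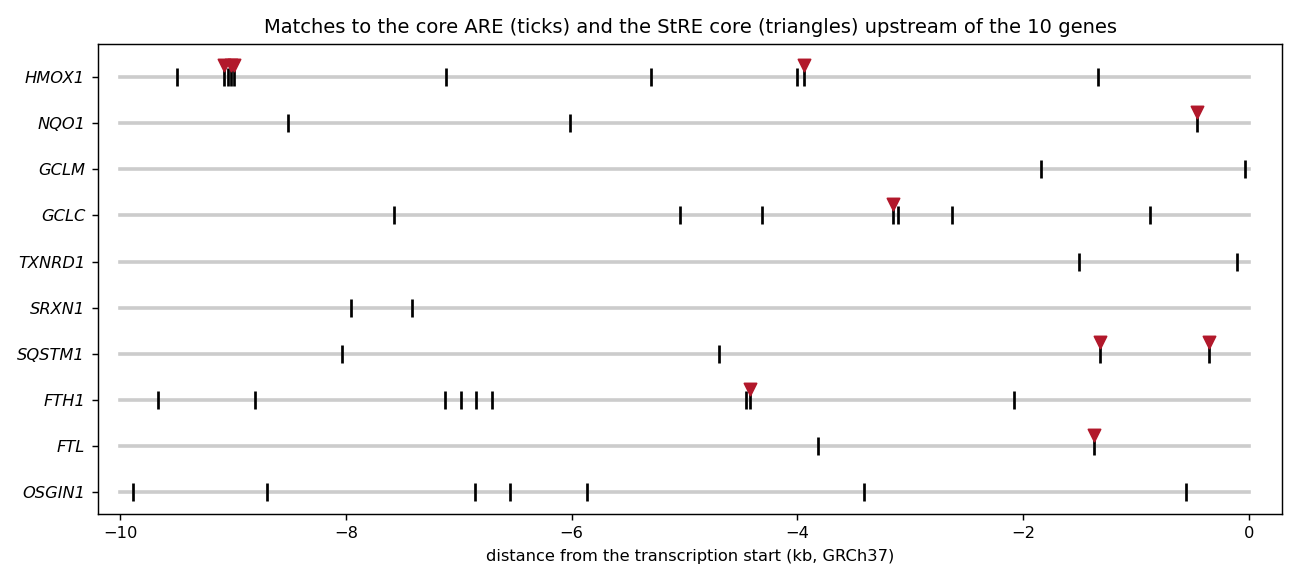
Matches to the core antioxidant response element (ticks) and to its longer form (triangles) in the 10000 bases before the start of each of the 10 genes, with distance from the start in kilobases on the horizontal axis. HMOX1 has 4 matches to the longer form, 3 of them about 9 kilobases away, whereas the matches of NQO1 and SQSTM1 reach into the last 1000 bases.

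HMOX1 (chromosome 22, 35776354 to 35790207, plus strand, 5 exons) encodes the enzyme that opens the heme ring to biliverdin, carbon monoxide and ferrous iron. Its level was 11.7 RPKM with GFP, 13.5 with wild type, 17.0 with T275M, 27.3 with G302V, 9.75 with control siRNA and 6.88 with DDX3X siRNA. The G302V library was the highest of the 6 and the DDX3X siRNA library the lowest, with 3.97-fold between them. These levels rest on 1021, 1348, 1288, 1897, 1047 and 1978 reads in the same order, and for each pair of neighbours in the order of levels the counting interval of the difference lay clear of 0. How far cultures of 1 group would differ was not measured, so that order is one of libraries.

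**Figure D2:**
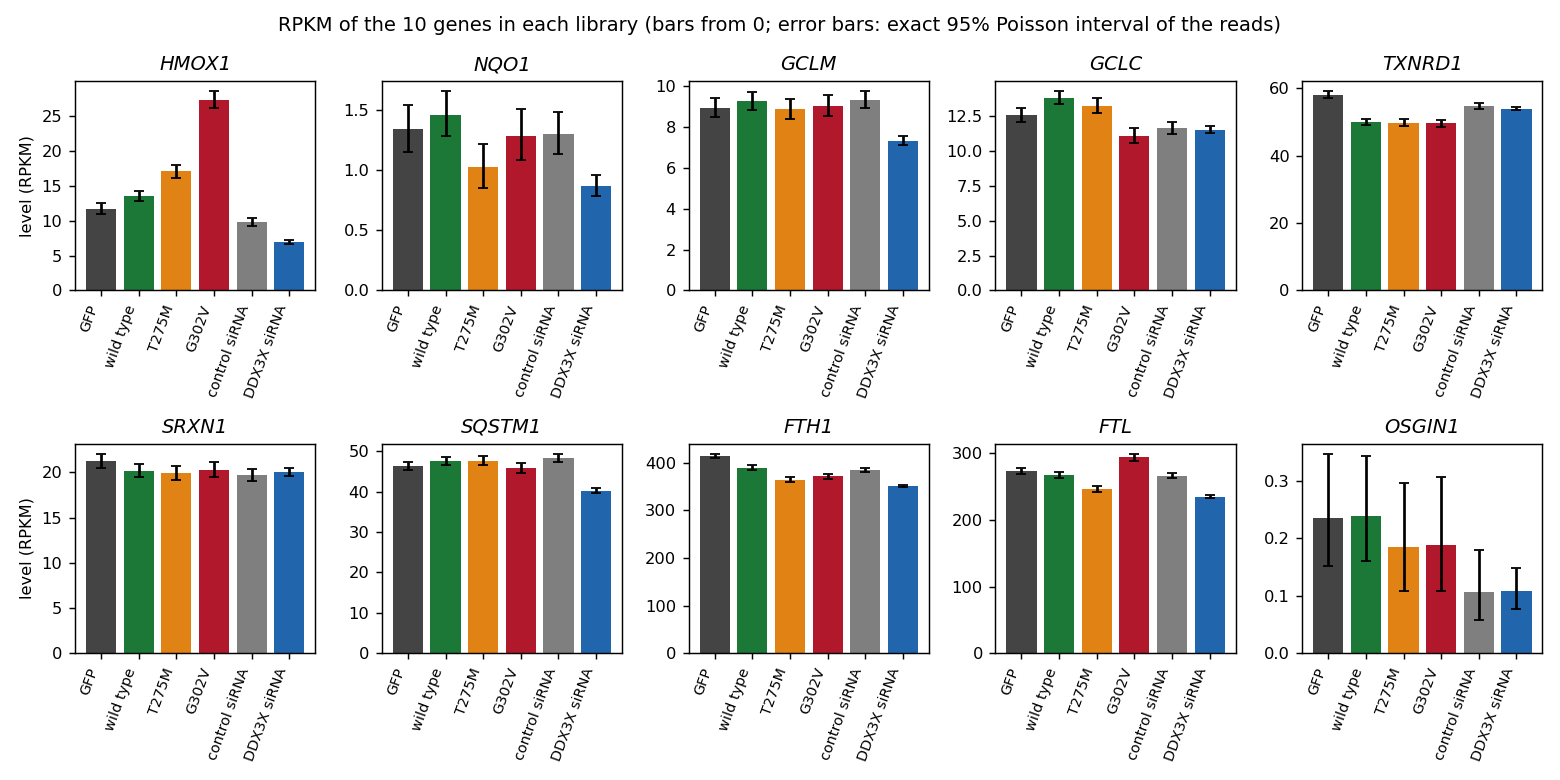
Level in RPKM (vertical axes, from 0) of each of the 10 genes in each of the 6 libraries, with the exact 95% Poisson interval of the reads as error bars. HMOX1 climbs from 11.7 with GFP to 27.3 with G302V, whereas the other 9 panels show no such step, and the wide bars of OSGIN1 reflect 14 to 38 reads.

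Differences below are on the scale of log2(RPKM + 1), which understates the change of genes of low level. HMOX1 was higher than with GFP by 1.15 with G302V (counting interval 1.05 to 1.26), by 0.51 with T275M (0.39 to 0.62) and by 0.19 with wild type (0.08 to 0.30), all 3 against the same GFP library. With libraries scaled by the median of gene ratios the value for wild type was 0.10. Only the G302V value passed 1.5-fold. In G302V against GFP, HMOX1 ranked 9 of 12775 genes from the top, in a comparison where 1.77% of genes passed 1.5-fold in either direction and 0.0861% were 2-fold or more higher. GDF15, at 1.01, was the last gene inside 2-fold and EBF4, at 0.98, the first outside. The position of HMOX1 in this comparison is what the set was chosen for.

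Against the other DDX3X constructs, which were sorted and timed like G302V and carry the same tag, HMOX1 stayed higher with G302V. The difference was 0.96 against wild type (0.87 to 1.06, 2.02-fold in RPKM, rank 2 of 12967 genes) and 0.65 against T275M (0.55 to 0.75, rank 17), with 1.76% and 1.20% of all genes past 1.5-fold. T275M against wild type gave 0.31 (0.21 to 0.42, rank 148), short of 1.5-fold, in a comparison where 0.347% of genes passed. Among the 3 constructs, HMOX1 was highest where the DDX3X transcript was lowest (1906 RPKM, against 2894 and 3279). Other measures also differed between these libraries, and their part in the HMOX1 level was not tested. The summed neuronal markers were 9.60 RPKM with GFP and 13.6, 13.2 and 13.6 with wild type, T275M and G302V. All markers that passed the filter lay above GFP: 4 of 4, 4 of 4 and 3 of 3 for these constructs in turn. That count is partly set by the filter, which SNAP25 passed only through the wild type and T275M libraries, where it was high. Among the markers left out, all under 1 RPKM, some values lay below GFP. In the order GFP, wild type, T275M and G302V, RBFOX3 was at 0.667, 0.702, 0.581 and 0.615 RPKM, and SLC17A7 at 0.717, 0.712, 0.799 and 0.930. The medians of the markers that passed were 0.40, 0.42 and 0.27, and the counting interval lay above 0 for 3, 3 and 2 of them. It did so for 41.1%, 44.2% and 35.1% of all genes. These markers belong to the genes under 10 RPKM on average, which as a class also sat higher with the constructs. The class had medians of 0.13, 0.16 and 0.10, with 23.2%, 20.9% and 29.8% of its genes below 0. The order among the constructs differed from marker to marker. In the order of those libraries, GFP first, SYP was at 2.74, 3.996, 3.91 and 5.59 RPKM. SYP passed 1.5-fold in G302V against GFP (0.82) and was highest where HMOX1 was highest. SYT1 was at 1.62, 2.43, 2.59 and 2.15 RPKM, GAD1 at 3.72, 4.31, 4.04 and 3.96, and SNAP25 at 0.115, 1.38, 1.22 and 0.29. The summed level of 8 immune and stromal markers was 8.89 with GFP and 7.72 with G302V. Most of it came from COL1A1 (5.29 with GFP and 5.03 with G302V) and CD68 (3.31 and 2.53). CD3E was at 0 in all 6 libraries and PTPRC at or near 0.

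In the siRNA arm HMOX1 lay lower with DDX3X siRNA by 0.45 (interval of the difference -0.55 to -0.35), short of 1.5-fold, and 97.4% of genes lay above it in that comparison. There 254 of 12694 genes (2.0%) were past 1.5-fold. HMOX1 also differed by 0.24 (0.13 to 0.36) between the 2 controls, being higher with GFP than with control siRNA, although DDX3X was manipulated in neither, and 95% of all genes lay between -0.49 and 0.45 in that comparison, in which 2.33% passed 1.5-fold. These 2 controls differ at once in reagent, time and sorting, which cannot be told apart. The HMOX1 differences of wild type from GFP (0.19) and of DDX3X siRNA from its control (-0.45) lay inside that range. That of T275M from GFP (0.51) lay just outside it. The range is a spread over genes between unlike controls and does not measure how far cultures of 1 group differ. Within their own comparisons, 95% of all genes lay between -0.27 and 0.54 (wild type), -0.35 and 0.56 (T275M) and -0.455 and 0.461 (DDX3X siRNA). HMOX1 lay inside each, with DDX3X siRNA (-0.449) next to the lower bound.

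NQO1 (chromosome 16, 69740899 to 69760571, minus strand) encodes a quinone reductase and is among the most widely used reporters of NRF2 activity. It was barely expressed in these cells, at 1.34 RPKM with GFP, 1.46 with wild type, 1.02 with T275M, 1.28 with G302V, 1.30 with control siRNA and 0.866 with DDX3X siRNA, from 126 to 406 reads. With G302V it lay at -0.04 against GFP (-0.22 to 0.15), so that its interval spans 0 and excludes a 1.5-fold difference of these 2 libraries. It was lower with T275M (-0.21, -0.38 to -0.03) and with DDX3X siRNA (-0.30, -0.43 to -0.17), neither past 1.5-fold on this scale. Its 3 transcript rows, which share reads, gave -0.04 to 0.00 in G302V against GFP.

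GCLC and GCLM encode the catalytic and the modifier subunit of glutamate-cysteine ligase, the enzyme that limits glutathione synthesis. GCLM (chromosome 1, 94350755 to 94375012, minus strand) was at 8.92 RPKM with GFP, 9.24 with wild type, 8.87 with T275M, 9.01 with G302V, 9.32 with control siRNA and 7.31 with DDX3X siRNA. GCLC (chromosome 6, 53362139 to 53481768, minus strand) was at 12.5, 13.8, 13.2, 11.1, 11.6 and 11.5 RPKM in the same order. With G302V the values of the subunits lay apart. GCLM against GFP was 0.01 (-0.09 to 0.11), a value that took the other sign (-0.02) when libraries were scaled by the median of gene ratios, whereas GCLC was lower by 0.16 (interval of the difference -0.24 to -0.08) and was the lowest of all 6 libraries there. With DDX3X siRNA it was GCLM that lay lower, at -0.31 (-0.38 to -0.24), and GCLC was at -0.02 (-0.07 to 0.04), or 0.06 with the other scaling.

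TXNRD1 and SRXN1 serve the thiol arm of the response: thioredoxin reductase 1 passes electrons from NADPH to thioredoxin, and sulfiredoxin restores overoxidised peroxiredoxins. TXNRD1 (chromosome 12, 104609557 to 104744085, plus strand) was at 58.2 RPKM with GFP, 50.1 with wild type, 49.8 with T275M, 49.6 with G302V, 54.9 with control siRNA and 54.0 with DDX3X siRNA. The 3 DDX3X constructs were thus alike and all below GFP, by -0.21 (-0.25 to -0.17), -0.22 (-0.26 to -0.18) and -0.23 (-0.27 to -0.18), with no order like that of HMOX1. Its 5 transcript rows spanned -0.23 to -0.22 in G302V against GFP. SRXN1 (chromosome 20, 627259 to 633844, minus strand) was the steadiest of the 10 genes, at 21.3, 20.2, 19.9, 20.3, 19.7 and 20.1 RPKM in the order used for TXNRD1, a range of 1.08-fold over all 6 libraries.

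SQSTM1 (chromosome 5, 179233398 to 179265078, plus strand) encodes p62, an autophagy receptor that binds KEAP1. It was at 46.3 RPKM with GFP, 47.7 with wild type, 47.7 with T275M, 45.8 with G302V, 48.4 with control siRNA and 40.3 with DDX3X siRNA. The 4 plasmid libraries lay close together, G302V against GFP being -0.01 (-0.06 to 0.03), and only the DDX3X siRNA library stood apart, at -0.26 (-0.29 to -0.23) from its control.

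FTH1 and FTL encode the heavy and the light chain of ferritin, which stores the iron that heme breakdown releases. FTH1 (chromosome 11, 61727190 to 61735106, minus strand) was at 414.2 RPKM with GFP, 389.98 with wild type, 364.5 with T275M, 371.3 with G302V, 383.9 with control siRNA and 351.1 with DDX3X siRNA. FTL (chromosome 19, 49468566 to 49470136, plus strand) was at 274.1, 267.7, 246.6, 294.1, 266.6 and 235.1 RPKM in the same order. FTL was, after HMOX1, the only gene of the 10 to have its highest level in the G302V library. Its difference from GFP was small (0.10, 0.07 to 0.14), as was that from wild type (0.14, 0.10 to 0.17), and the largest was 0.25 (0.21 to 0.29) from T275M. FTH1 was lower than with GFP in all 3 constructs, by 0.16 in G302V (interval of the difference -0.18 to -0.13), so the chains lay on opposite sides of GFP there and neither reached 1.5-fold. Both genes have near-identical processed copies in the genome, and how their reads were divided is not given in the sources used here.

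The ferritin values are those of very abundant transcripts, and abundant genes as a class sat lower with each construct and with DDX3X siRNA than in the respective control. Of the 848 genes at 100 RPKM or more on average, 88.2% were below 0 in G302V against GFP, with a median of -0.15. The median was -0.15 with T275M, -0.07 with wild type and -0.11 with DDX3X siRNA. Set beside those medians, FTH1 lay at -0.16, -0.18, -0.09 and -0.13, close to its class in each of the 4, whereas FTL with G302V lay above it. OSGIN1 (chromosome 16, 83964916 to 83999937, plus strand), an oxidant-responsive growth inhibitor, was at 0.235 RPKM with GFP, 0.238 with wild type, 0.184 with T275M, 0.189 with G302V, 0.107 with control siRNA and 0.108 with DDX3X siRNA. These are 25, 29, 17, 16, 14 and 38 reads, under the filter of 1 RPKM in every library, and G302V was below GFP in them.

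**Figure D3:**
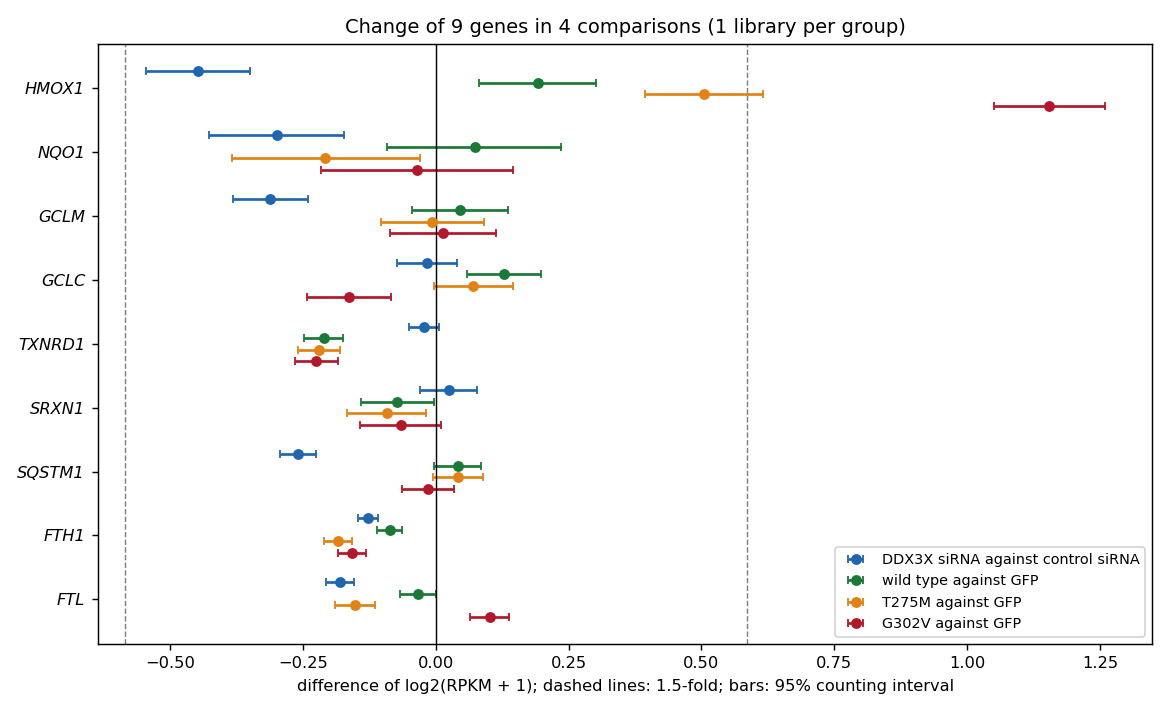
Difference of log2(RPKM + 1) on the horizontal axis for 9 of the 10 genes in 4 comparisons (colours), with 95% counting intervals as bars and dashed lines at 1.5-fold. HMOX1 with G302V, at 1.15, is the only point past a dashed line, and the other 8 genes with G302V lie between -0.23 and 0.10.

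Counted over the 9 genes that passed the filter, 1 (HMOX1) was past 1.5-fold in G302V against GFP, against wild type and against T275M. None was past it in T275M against wild type, in the comparison of the controls, with DDX3X siRNA, with wild type against GFP (where 2.21% of all genes passed) or with T275M against GFP (2.64%). In G302V against GFP the median of the 9 was -0.04, that of the 8 without HMOX1 was -0.05, and that of all genes was 0.03. The counting interval lay above 0 for 2 of the 9 (HMOX1 and FTL) and below 0 for 3 (GCLC, TXNRD1 and FTH1), in a comparison where it lay above 0 for 35.1% and below 0 for 26.3% of all genes. The share of the 9 with an interval above 0 was therefore no larger than that of all genes.

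With wild type against GFP the interval was above 0 for 2 of the 9 and below 0 for 3 (41.1% and 21.3% of all genes), and the median was 0.04 beside 0.05 for all genes, or -0.06 with libraries scaled by the median of gene ratios. With T275M it was above 0 for 1, which was HMOX1, and below 0 for 5 (44.2% and 23.4%), with a median of -0.09 beside 0.07. With DDX3X siRNA it was above 0 for none and below 0 for 6 (32.8% and 40.1%), with a median of -0.18 beside -0.02. In this last comparison HMOX1, GCLM, NQO1 and SQSTM1 were the 4 lowest of the 9, and SRXN1, at 0.02, was the only one above 0, though GCLC and TXNRD1 joined it when libraries were scaled by the median of gene ratios.

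**Figure D4:**
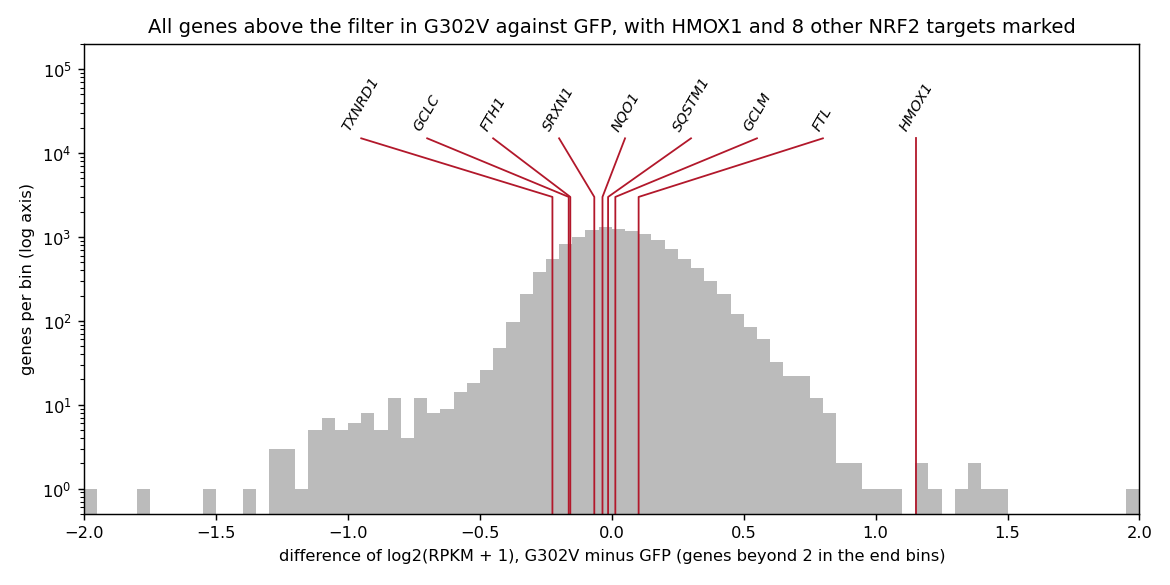
Number of genes (vertical axis, log scale) by difference of log2(RPKM + 1) between G302V and GFP for the 12775 genes above the filter, with lines at HMOX1 and at the 8 other genes of the set. The 8 lie in the bulk between -0.23 and 0.10, and HMOX1 lies in the sparse right tail at 1.15.

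Over the 6 libraries, Pearson's r of log2(RPKM + 1) with HMOX1 was 0.687 for FTL, 0.557 for GCLM, 0.516 for OSGIN1, 0.473 for SQSTM1, 0.375 for NQO1, 0.0828 for SRXN1, 0.0685 for FTH1, 0.00717 for GCLC and -0.646 for TXNRD1. These are descriptions over 6 points that fall into a plasmid and an siRNA arm. The 5 genes most like HMOX1 by the same measure, among 167 that reached 10 RPKM in some library and ranged over at least 2-fold, were TMEM54 (0.910), HDAC10 (0.864), CDKN1A (0.835), YPEL3 (0.827) and DDX3X itself (0.814). The other genes of the set could not appear among them, since none ranged over 2-fold at such a level. TMEM54, a membrane protein, was at 8.48 RPKM with GFP, 10.2 with wild type, 11.3 with T275M, 12.3 with G302V, 9.02 with control siRNA and 5.49 with DDX3X siRNA. Its plasmid libraries had the order of HMOX1 over a narrower range. TMEM54 was picked for its likeness to HMOX1 and no counting interval is given for it, so that order is a description. HDAC10, a deacetylase picked in the same way, was at 16.2, 18.8, 20.1, 22.2, 9.91 and 11.3 RPKM. Its plasmid libraries also had the order of HMOX1, but it was higher with DDX3X siRNA than with control siRNA, where HMOX1 was lower. CDKN1A, the cyclin-dependent kinase inhibitor p21, was at 7.38, 16.3, 22.7, 21.1, 5.54 and 6.88 RPKM, already high with wild type and no higher with G302V than with T275M, which is not the order of HMOX1.

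The regulators of the pathway came from a list of 9, of which 8 passed the filter and MAFF, under 1 RPKM throughout, did not. None passed 1.5-fold with any construct or with DDX3X siRNA. Of all genes, 2.21% passed with wild type, 2.64% with T275M, 1.77% with G302V and 2.0% with DDX3X siRNA. A count of 0 among 8 genes is near those shares. NFE2L2 was at 17.6 RPKM with GFP, 21.6 with wild type, 22.2 with T275M, 19.6 with G302V, 19.0 with control siRNA and 18.0 with DDX3X siRNA. Its difference from GFP was smaller with G302V (0.14, 0.07 to 0.22) than with wild type (0.28, 0.21 to 0.35) or T275M (0.32, 0.24 to 0.39), so that its order among the constructs was not that of HMOX1. BACH1, the repressor, had the same order, at 4.77, 5.99, 6.44, 5.51, 5.11 and 5.10 RPKM.

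Among the small MAF partners, MAFK differed from GFP by 0.31, 0.35 and 0.17 in wild type, T275M and G302V. MAFG was at 6.73 RPKM with GFP, 8.37 with wild type, 8.61 with T275M, 9.09 with G302V, 5.42 with control siRNA and 5.65 with DDX3X siRNA, and its plasmid libraries had the order of HMOX1, over a range that did not reach 1.5-fold. The counting interval of its level with T275M (8.24 to 8.99) overlapped those with wild type (8.06 to 8.70) and G302V (8.70 to 9.50). MAFF, under the filter, was at 0.599, 0.703, 0.747 and 0.772 RPKM in the plasmid libraries. These are 73, 98, 79 and 75 reads with intervals that all overlap, so its order is within counting error. For the ligase, KEAP1 differed from GFP by -0.07, -0.15 and -0.14 in wild type, T275M and G302V. CUL3 lay within 0.05 of GFP in all 3 constructs, and RBX1 was at 0.19, -0.06 and -0.16. NFE2L1, the related factor that controls proteasome genes, was at 0.13 with G302V and 0.37 with DDX3X siRNA (0.34 to 0.40). The median of the 8 regulators was 0.23 with wild type, 0.20 with T275M, 0.14 with G302V and -0.02 with DDX3X siRNA. That of all genes was 0.05, 0.07, 0.03 and -0.02 in the same order. Genes under 10 RPKM on average, to which BACH1, MAFG and MAFK belong, had medians of 0.13, 0.16 and 0.10 with the constructs.

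A second list held 30 other NRF2 targets, such as enzymes of the pentose phosphate pathway and of drug metabolism, and 21 passed the filter. In G302V against GFP none of the 21 passed 1.5-fold on the log2(RPKM + 1) scale, where 1.77% of all genes did. Of the 21, 2 were above 0 and 19 below, where 45.2% of all genes were below 0, and the median was -0.13. The counting interval was above 0 for 1 of them (ABCC1, an exporter of glutathione conjugates, at 0.28) and below 0 for 13. Of the 21, 6 belonged to the class of 100 RPKM or more described above for ferritin, and all 6 were below 0, as were 13 of the 15 others. The farthest was SLC7A11, the cystine importer that feeds glutathione synthesis, at 2.47 RPKM with GFP and 1.55 with G302V, a difference of -0.44 (-0.53 to -0.35). Its ratio in RPKM, without the added 1, was 0.628 and so beyond 1.5-fold, and against wild type (2.85 RPKM) it passed on the log2 scale as well, at -0.59 (-0.68 to -0.51). The same list had a median of -0.09 with wild type and -0.10 with T275M. None was past 1.5-fold, where 2.21% and 2.64% of all genes were. The farthest gene was AKR1B1, an aldose reductase, at -0.18 with wild type and CBR1, a carbonyl reductase, at -0.26 with T275M. Of the 21, 14 were below 0 with wild type and 18 with T275M, where 37.9% and 37.8% of all genes were.

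With DDX3X siRNA, where 2.0% of all genes passed 1.5-fold, SLC7A11 was the only gene of the 21 to do so. It was at 4.38 RPKM with control siRNA and 1.19 with DDX3X siRNA, a difference of -1.30 (-1.35 to -1.24). The control libraries themselves differed for it by -0.63 (GFP below control siRNA). The median of the 21 was -0.12, beside -0.02 for all genes. Of the 21, 15 were below 0 and 6 above, in a comparison where 54.5% of all genes were below 0.

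**Figure D5:**
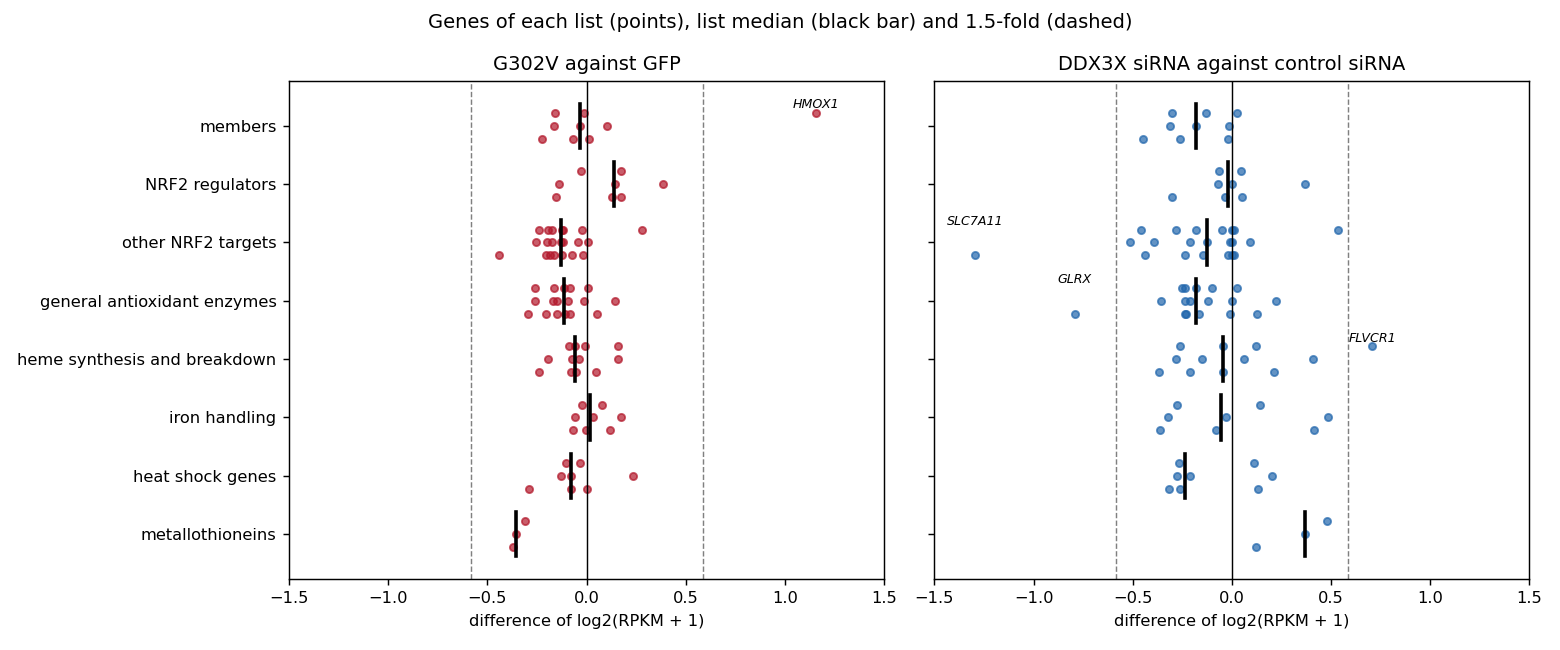
Difference of log2(RPKM + 1) on the horizontal axis for the genes of 8 lists (points; rows), with the median of each list as a black bar and dashed lines at 1.5-fold, for G302V against GFP (left) and DDX3X siRNA against control siRNA (right); the row named members holds 9 of the 10 genes. On the left HMOX1 is the only point past 1.5-fold, and on the right SLC7A11 and GLRX lie below and FLVCR1 above.

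The further lists, here and in the paragraphs that follow, were read in the same way. Of all genes, 2.21% passed 1.5-fold with wild type, 2.64% with T275M, 1.77% with G302V and 2.0% with DDX3X siRNA. A count of 0 in lists of this size is near those shares. Of 17 antioxidant enzymes that are not held to be mainly NRF2 targets, none passed 1.5-fold with a construct, and in G302V against GFP 3 were above 0 and 14 below (median -0.12), where 45.2% of all genes were below 0. The 8 of them at 100 RPKM or more, of which 6 were below 0, belong to the class whose median was -0.15. Superoxide dismutase SOD1 was the farthest there, at -0.29, and glutathione peroxidase GPX1 was farthest with wild type (-0.42) and T275M (-0.43). With DDX3X siRNA the list had a median of -0.18 and 1 gene past 1.5-fold, the glutaredoxin GLRX, which was at 13.6 RPKM with control siRNA and 7.42 with DDX3X siRNA, a difference of -0.79 (-0.90 to -0.68).

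Heme and iron genes lie on either side of the HMOX1 reaction. Of 12 genes of heme synthesis and breakdown, none passed 1.5-fold with a construct and the median in G302V against GFP was -0.06. HMOX2, the constitutive heme oxygenase, was at 47.7 RPKM with GFP, and at 38.2, 37.0 and 40.1 RPKM with wild type, T275M and G302V. It was the farthest from GFP in all 3 constructs (-0.31, -0.36 and -0.24), on the side opposite to HMOX1. With DDX3X siRNA the heme exporter FLVCR1 passed 1.5-fold upward, from 9.41 to 16.0 RPKM (0.71, 0.66 to 0.75). None of 8 iron-handling genes passed in these 4 comparisons. Their farthest members were IREB2, an iron-sensing RNA-binding protein, at 0.17 with G302V, SLC11A2, an iron importer, at 0.25 with T275M, and the ferrireductase STEAP3 at -0.30 with wild type and 0.49 with DDX3X siRNA.

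Heat shock genes and metallothioneins were included because HMOX1 is also induced by heat and metals. None of 8 heat shock genes passed 1.5-fold, and their median was -0.08 with G302V, -0.11 with T275M, -0.25 with wild type and -0.24 with DDX3X siRNA. The farthest was HSPA8, a constitutive chaperone, at -0.29 with G302V and -0.35 with T275M. With wild type it was the inducible HSPA1B (-0.34), whose reads can be shared with a near-identical neighbour, and with DDX3X siRNA the chaperone HSP90AA1 (-0.32). Of 5 metallothioneins, 3 passed the filter, and in G302V against GFP all 3 were below 0: MT1F at -0.31, MT1X at -0.36 and MT2A at -0.37. With T275M the farthest was MT1X (-0.34), at 55.7 RPKM with GFP and 43.9 with T275M. MT1F passed 1.5-fold with wild type (0.61, 0.33 to 0.89), at 4.88 RPKM with GFP and 7.95 with wild type, and was at 0.48 with DDX3X siRNA.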

How the data were processed

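Total RNA of HEK293T cells was made into 6 TruSeq libraries, 1 per group, and groups were taken from the sample labels. Which mutant the T275M library holds is known from its label only, and the study's plot legend names another. Per the methods and the processing notes, the authors trimmed reads with cutadapt, aligned them with BWA 0.5.5 to NCBI Build 37 and transcript databases, removed duplicates, and deposited RPKM values, 1 row per RefSeq accession (39618 rows, 23204 symbols). How reads shared by transcripts or gene copies were divided is not given in the sources used here.

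The row of highest mean RPKM stood for each symbol. RPKM times length fell on whole multiples of 1 step (within 0.1 for 100% of 7413 to 9021 low rows checked per library), which gave reads and depths. Differences are of log2(RPKM + 1). A gene entered a comparison with at least 1 RPKM and 10 reads in 1 of the 2 libraries, and was counted as changed at 1.5-fold (0.585). Intervals are 95%: exact Poisson for levels and exact Clopper-Pearson, from the share of reads, for differences. Reads carry no molecular identifiers, so intervals cover counting error only. With 1 library per group no test was run. The scripts were tested on simulated data.

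The 10 genes and all lists were chosen with earlier results of these data known. Named from the lists were all regulators, and per list and comparison the genes past 1.5-fold (at most 3) or else the farthest gene, in the 3 comparisons with GFP and that of the siRNAs; ABCC1, GDF15, EBF4, SLC7A11 against wild type and the single marker genes were named after their values were seen. Python 3.11.15, numpy 2.4.6, pandas 2.3.3, scipy 1.17.1 and matplotlib 3.10.9 were used. Alternatives were pseudocounts of 0.1 and 10, other filters, median-ratio scaling, totals without DDX3X, CPM, other choices of row, and a 2-fold threshold.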

Additional observations from a re-analysis of the deposited data

How the results depend on the processing

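Of the medians and counts over the 10 genes in 8 comparisons, 145 values under the alternatives stayed close to those reported and 7 moved. Medians near 0 changed sign in 2 comparisons: wild type against GFP (0.04) was -0.03 with a minimum of 10 RPKM and -0.06 with median-ratio scaling, which also took G302V against wild type from -0.03 to 0.02. The median with DDX3X siRNA (-0.18) was -0.13 with a pseudocount of 10, -0.075 with a minimum of 10 RPKM, which left 6 genes, and -0.10 with median-ratio scaling. The median in T275M against GFP (-0.09) was -0.19 with median-ratio scaling. At a 2-fold threshold the count was 0 in G302V against wild type and 0 in G302V against T275M, and with a pseudocount of 10 it was also 0 in the latter. For single genes, 584 values stayed close and 48 moved, and small values of GCLM, GCLC, TXNRD1, SRXN1 and SQSTM1 changed sign under some alternative. HMOX1 in G302V against GFP ranged from 0.78 to 1.21 and passed 1.5-fold under every alternative, whereas in wild type against GFP it ranged from 0.10 to 0.21, the lowest with median-ratio scaling. That scaling shifted the median of all genes by no more than the -0.0907 of wild type against GFP. By Spearman's rho TMEM54 and HDAC10 were among the 3 genes most like HMOX1, and CDKN1A was tied among the next 3. No paired analysis was possible because each group holds 1 library and the labels give no replicate numbers. No library could be left out, and with 1 library per group the depth limits only the counting error, which is widest for OSGIN1 and NQO1.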
